A study of Mus musculus with 6 samples.

Results

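The 10 genes described here encode enzymes by which the liver disposes of ammonia and makes glucose, chosen by name: Cps1, Otc, Ass1, Asl and Arg1 of the urea cycle, Glul of glutamine synthesis, Pck1, Fbp1 and G6pc of gluconeogenesis, and Tat of tyrosine breakdown. All 10 were found among the 34745 genes of the deposited table, each in 1 row with 6 values. Cells of the mouse hepatoma line Hep1-6 had been injected under the skin of C57BL/6J mice, and RNA was sequenced from the tumours that grew there. A high cholesterol diet was fed to the hosts of 3 tumours (HCD 1 to HCD 3), and a normal diet to those of the other 3 (ND 1 to ND 3). The values are FPKM, fragments scaled by gene length and by sequencing depth, so levels can be set side by side between genes, as far as the gene lengths used were right. The lengths implied by the values were 1.00 to 1.63 times those of the annotation used here for the 9 members with reads. The labels do not say that each tumour came from a different animal, and all tumours share 1 cell line, so the p-values reflect the variation among 6 samples, which may be technical in part.

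In liver, ammonia is disposed of along a pair of routes. Around the portal vein, hepatocytes run the urea cycle, which starts in mitochondria with Cps1 and Otc and continues in the cytosol with Ass1, Asl and Arg1. Around the central vein, a thin layer of hepatocytes uses glutamine synthetase, the product of Glul, to capture the ammonia that is left. Gluconeogenesis builds glucose from lactate, glycerol and amino acids through Pck1, Fbp1 and G6pc, which are classically switched by glucagon, glucocorticoids and insulin, and Tat is a classical glucocorticoid-induced liver gene. Many tissues outside the liver use Ass1, Asl and Arg1 without a full urea cycle, to make or break down arginine.

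The members split into a group that was well above background and a group near 0. Glul, Ass1, Arg1 and Asl had means over the 6 libraries of 67.2, 65.9, 20.1 and 5.96 FPKM. Tat had a mean of 1.11 FPKM. Pck1, Cps1, Fbp1, G6pc and Otc had means of 0.0534, 0.0275, 0.00978, 0.00335 and 0 FPKM, below the mean of 0.5 FPKM required for testing. Thus 5 of the 10 members were tested. Albumin mRNA (Alb), a defining product of hepatocytes, ranged from 1176 to 1672 FPKM in HCD and from 1272 to 1553 FPKM in ND. Rbp4 and Afp, also listed as hepatocyte markers, had means over the 6 libraries of 257 and 148 FPKM. Serpina1a, the lowest of the listed hepatocyte markers, did not exceed 0.140 FPKM in any library. Of the 11 hepatocyte markers listed, 8 were tested.

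**Figure D1:**
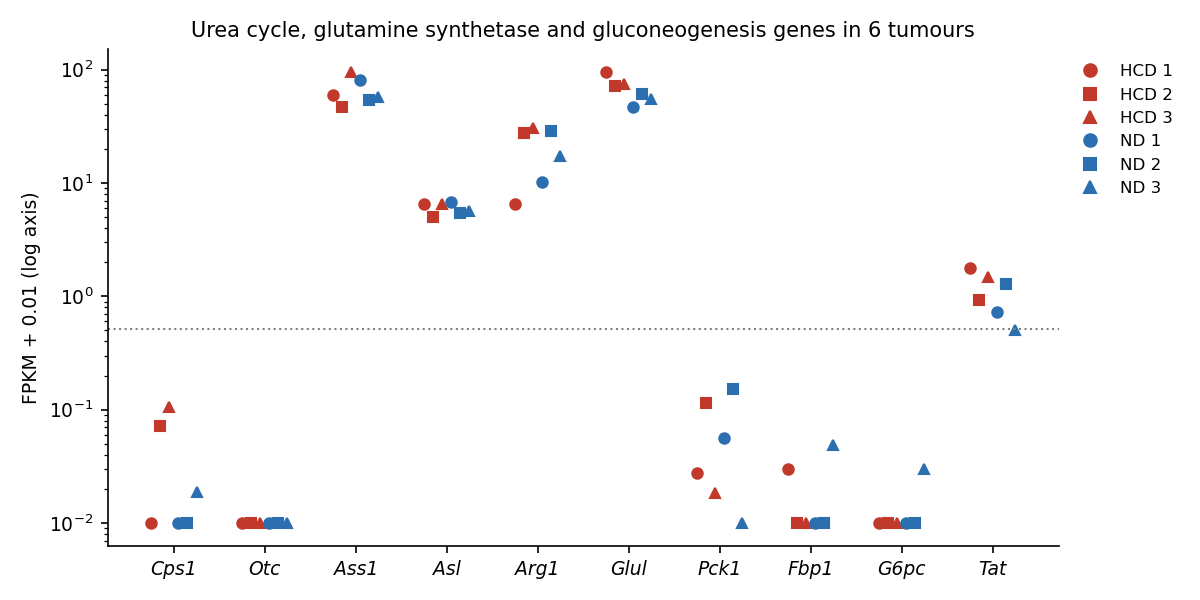
FPKM plus 0.01 on a log axis for the 10 genes in each tumour, with HCD libraries in red and ND libraries in blue; the dotted line marks the mean of 0.5 FPKM required for testing. Glul, Ass1, Arg1 and Asl lie between 5.04 and 95.5 FPKM, and Cps1, Otc, Pck1, Fbp1 and G6pc do not exceed 0.143 FPKM in any library.

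The promoters of the 2 most abundant members and of 2 members near 0 are shown because they differ in base composition. The windows run from 250 bases before to 50 after the transcription start, taken from RefSeq on GRCm38.p6, with each CpG (a C followed by a G) in capitals. The Ass1 window lies at chr2:31470020-31470319 on the plus strand, the Glul window at chr1:153899679-153899978 (plus), the Pck1 window at chr2:173152823-173153122 (plus) and the Otc window at chrX:10252055-10252354 (plus).
Ass1: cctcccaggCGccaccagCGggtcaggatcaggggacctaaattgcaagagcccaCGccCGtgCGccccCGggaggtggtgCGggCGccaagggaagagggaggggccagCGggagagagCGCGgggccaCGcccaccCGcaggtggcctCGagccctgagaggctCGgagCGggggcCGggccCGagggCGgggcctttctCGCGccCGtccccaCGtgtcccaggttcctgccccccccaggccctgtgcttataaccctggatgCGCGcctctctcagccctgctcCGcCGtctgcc
Glul: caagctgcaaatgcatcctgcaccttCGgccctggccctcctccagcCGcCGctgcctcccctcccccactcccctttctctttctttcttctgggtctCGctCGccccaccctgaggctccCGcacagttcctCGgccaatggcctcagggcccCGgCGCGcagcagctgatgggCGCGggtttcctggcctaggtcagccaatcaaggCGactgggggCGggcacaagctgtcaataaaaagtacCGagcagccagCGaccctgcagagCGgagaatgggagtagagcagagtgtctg
Pck1: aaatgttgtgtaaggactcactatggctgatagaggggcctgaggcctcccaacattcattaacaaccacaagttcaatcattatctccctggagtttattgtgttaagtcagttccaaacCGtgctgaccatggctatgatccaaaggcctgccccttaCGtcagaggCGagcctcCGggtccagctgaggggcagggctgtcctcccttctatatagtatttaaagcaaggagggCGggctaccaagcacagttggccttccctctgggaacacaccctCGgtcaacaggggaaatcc
Otc: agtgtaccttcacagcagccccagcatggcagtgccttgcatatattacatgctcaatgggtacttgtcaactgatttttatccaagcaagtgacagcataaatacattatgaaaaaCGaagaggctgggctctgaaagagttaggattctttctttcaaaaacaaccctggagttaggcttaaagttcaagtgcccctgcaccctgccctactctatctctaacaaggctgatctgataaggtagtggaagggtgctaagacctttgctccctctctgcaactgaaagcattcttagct

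Ass1 held 27 CpG and Glul 17 in these 300 bases. Pck1 held 6 and Otc 1. Of the 10 members, 7 matched a window; the other 3 matched were Fbp1 with 6 CpG, Tat with 5 and G6pc with 4. The median over 32851 mouse promoter windows of this length was 7 CpG, with quartiles of 3 and 20. Ass1 and Glul were thus above that median, and the 5 matched members at or below 1.77 FPKM in every library were below it. No window was matched for Cps1, Asl or Arg1. Asl and Arg1, with means of 5.96 and 20.1 FPKM, are therefore missing from this comparison. This is a description of 7 windows, set out after the levels were known. The letters ACGTCA, part of the cAMP response element, were found on either strand in the Pck1 window and in none of the other 6, against 7.51% of all windows. The letters TATAAA were found in the G6pc window alone of the 7, against 13.6% of all windows.

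The mitochondrial entry to the urea cycle was near 0 in the tumours of both diets. Cps1, which makes carbamoyl phosphate from ammonia (chromosome 1, 67123026 to 67231259, GRCm38), was listed at 0, 0.0617 and 0.0947 FPKM in HCD 1 to HCD 3 and at 0, 0 and 0.00873 FPKM in ND 1 to ND 3. These values correspond to 0, 7 and 11 reads in HCD and to 0, 0 and 1 reads in ND. HCD 2 and HCD 3 had more reads than any ND library, but HCD 1 had none, so the groups overlapped. Otc, which joins carbamoyl phosphate to ornithine (chromosome X, 10252305 to 10321024), was listed at 0 in all 6 libraries. A low value in this table is not by itself proof of a missing transcript, because Rpl24, a ribosomal protein gene that every cell uses, had a mean of 0.229 FPKM. Such low values were rare among ribosomal protein genes: of 77 symbols, 3 had a mean below 0.5 FPKM and 1 was at 0 in all 6 libraries. No other gene was annotated as overlapping Cps1 or Otc.

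Ass1, which joins citrulline to aspartate (chromosome 2, 31470207 to 31520672), ranked 526th of 34745 genes by mean FPKM. It was at 59.9, 47.0 and 95.5 FPKM in HCD 1 to HCD 3 and at 81.6, 53.7 and 57.5 FPKM in ND 1 to ND 3. HCD 2 was the lowest and HCD 3 the highest of the 6 libraries, so the ND values lay inside the HCD range. The mean was 67.5 ± 25.1 FPKM in HCD and 64.3 ± 15.1 FPKM in ND (SD, n = 3 each), and the difference of 0.03 on the log2(FPKM + 1) scale had a 95% interval of -0.65 to 0.72 (limma adjusted p = 0.982).

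Asl, which splits argininosuccinate into arginine and fumarate (chromosome 5, 130011258 to 130029247), was the steadiest of the tested members. It was at 6.46, 5.04 and 6.49 FPKM in HCD and at 6.73, 5.37 and 5.64 FPKM in ND, in order of replicate. The highest library was 1.34 times the lowest, against 2.03 times for Ass1 and 4.72 times for Arg1. The log2 difference was 0.02 (95% interval -0.27 to 0.30, limma adjusted p = 0.979). The signs of the Ass1 and Asl differences turned under upper-quartile scaling and without HCD 3, ND 2 or ND 3, and that of Asl also without HCD 1. Ass1 ranged from -0.25 without HCD 3 to 0.26 without HCD 2, and Asl from -0.04 without ND 2 to 0.12 without HCD 2. Ass1 exceeded Asl per unit of length in 6 of 6 libraries, by 9.27, 9.33 and 14.7 times in HCD and by 12.1, 10.0 and 10.2 times in ND.

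Arg1, which splits arginine into urea and ornithine (chromosome 10, 24915221 to 24927484), varied most among the tested members, and its spread did not follow diet. It was at 6.49, 27.3 and 30.6 FPKM in HCD 1 to HCD 3 and at 10.1, 28.5 and 17.3 FPKM in ND 1 to ND 3. Both the lowest and the highest library were HCD. The SD over the 6 libraries was 0.86 on the log2 scale, against 0.38 for Ass1, 0.35 for Glul, 0.34 for Tat and 0.15 for Asl. The log2 difference of 0.05 had a 95% interval of -1.47 to 1.57 (limma adjusted p = 0.987). It ranged from -0.32 to 0.72 when each library was left out in turn, with its sign turned to -0.24, -0.32 and -0.30 by leaving out HCD 2, HCD 3 and ND 1. Leaving out HCD 1 gave the highest value, while dropping ND 2 gave 0.40 and dropping ND 3 gave 0.06. Without HCD 1 and ND 2 together it was 1.07 (adjusted p = 0.719, the lowest of its 15 alternatives, which reached 1.00).

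Macrophages can also express Arg1, so their markers are given beside it. The summed level of 11 macrophage markers was 612, 1027 and 429.8 FPKM in HCD 1 to HCD 3 and 262, 621 and 508 FPKM in ND 1 to ND 3, and all 11 passed the level for testing. HCD 3, with the highest Arg1 value, had a lower macrophage sum than HCD 1, with the lowest Arg1 value. The summed level of 5 markers of alternatively activated macrophages was 42.9, 42.6 and 15.9 FPKM in HCD and 20.6, 37.4 and 28.5 FPKM in ND, and HCD 3 was the lowest of the 6. Within ND, by contrast, Arg1 and both sums had the same order, lowest in ND 1 and highest in ND 2. For the alternatively activated markers that order came from Retnla alone, at 5.92, 18.2 and 4.22 FPKM in ND 1 to ND 3. Every other marker of that list was highest in ND 3. The part of macrophages in the Arg1 level was not tested. The 3 tested genes whose profile over the 6 libraries was nearest to that of Arg1 were Hbb-bs, a beta-globin chain of red blood cells, Trdj2, a joining segment of the T cell receptor delta locus, and AU021092. Their root-mean-square differences from the centred Arg1 profile were 0.31, 0.37 and 0.39 on the log2 scale, among 12015 genes compared. Hbb-bs was at 12.7, 26.5 and 53.6 FPKM in HCD and at 12.2, 40.7 and 22.0 FPKM in ND. Its level is uncertain, because a closely similar globin gene can take part of its reads. For Ass1, the nearest profiles were those of Rom1, Smim6 and Baiap2l2, with differences of 0.12, 0.13 and 0.14.

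**Figure D2:**
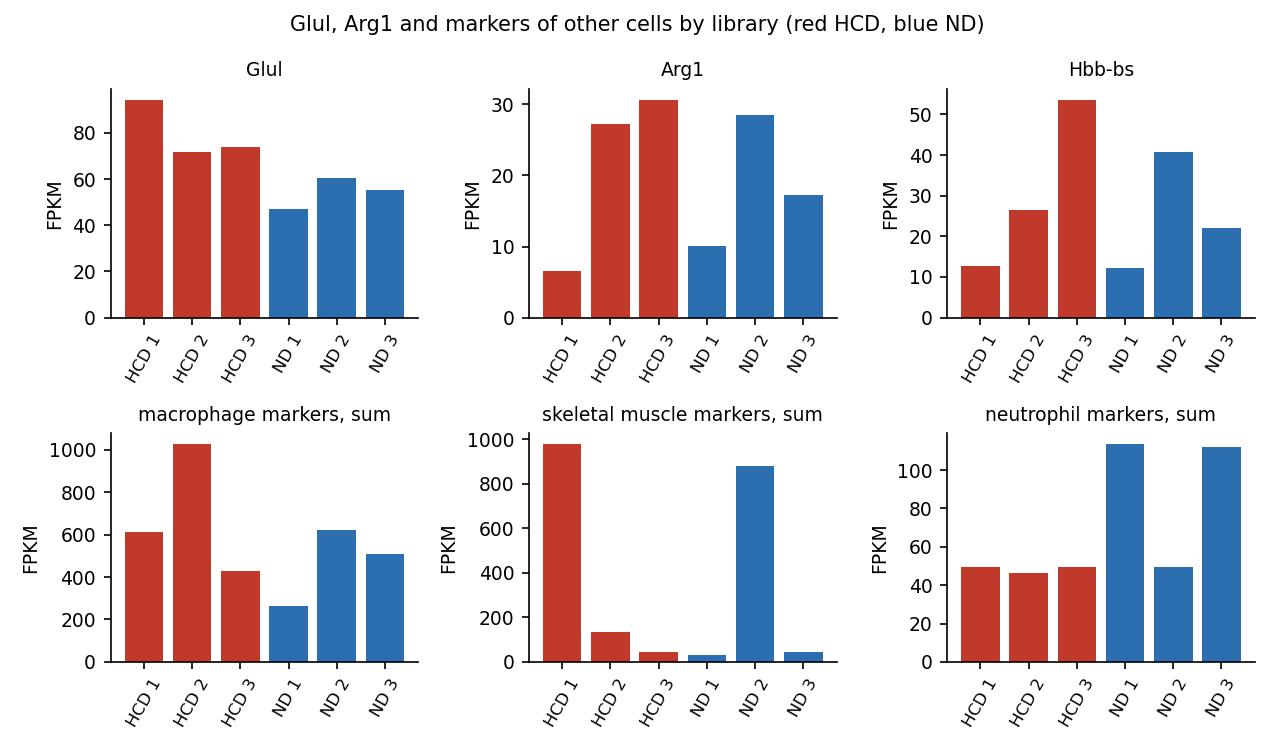
FPKM of Glul, Arg1 and Hbb-bs, and summed FPKM of 11 macrophage, 12 skeletal muscle and 10 neutrophil markers, as 1 bar per library (HCD red, ND blue). Arg1 is lowest in HCD 1 at 6.49 FPKM and highest in HCD 3 at 30.6 FPKM, while the macrophage sum is highest in HCD 2 at 1027 FPKM.

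Other genes of the urea cycle list were carriers and a cofactor enzyme, and 6 of the 9 listed genes were tested. All 6 had a higher mean in HCD on the log2 scale, with a median difference of 0.04, against 0.02 over the 13417 genes tested, and limma called none. The count turns with the signs of Ass1 and Asl under upper-quartile scaling. Slc25a13, the aspartate and glutamate carrier that supplies Ass1, was at 12.4 ± 1.41 FPKM in HCD and 12.1 ± 0.280 FPKM in ND (SD, n = 3 each). Slc25a15, the mitochondrial ornithine carrier, was at 4.09 ± 0.384 FPKM in HCD and 3.54 ± 0.388 FPKM in ND (SD, n = 3 each). Nags, which makes the obligate activator of Cps1, was at 1.30 ± 0.457 FPKM in HCD and 1.07 ± 0.293 FPKM in ND (SD, n = 3 each). Slc25a2, another ornithine carrier, was below the level for testing, at 0.0713 ± 0.0362 FPKM in HCD and 0.127 ± 0.0570 FPKM in ND (SD, n = 3 each), as were Cps1 and Otc.

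Glul was the most abundant member and the only one whose groups did not overlap. Glutamine synthetase, its product, joins ammonia to glutamate (chromosome 1, 153899944 to 153909723). Glul was at 94.3, 71.8 and 74.0 FPKM in HCD 1 to HCD 3 and at 47.2, 60.5 and 55.4 FPKM in ND 1 to ND 3. Every HCD library was above every ND library, with 71.8 FPKM in HCD 2 next to 60.5 FPKM in ND 2. Among all tested genes, 5.98% had HCD values wholly above ND values, and 12.1% did not overlap in either direction. The mean was 80.0 ± 12.4 FPKM in HCD and 54.4 ± 6.70 FPKM in ND (SD, n = 3 each), a ratio of 1.47. The log2 difference of 0.55 (SE 0.14, 95% interval 0.22 to 0.87) had an unadjusted limma p of 0.00629, and among all tested genes 5.88% had an unadjusted p under 0.05, 2.56% with a higher mean in HCD. After adjustment over all genes it did not pass (limma adjusted p = 0.794). An exact permutation test of the 3 HCD against the 3 ND values gave a two-sided p of 0.1, the smallest that this design allows.

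The Glul difference stayed between 0.42 and 0.63 on the log2 scale when each library was left out, lowest without HCD 1 and highest without ND 2. HCD 1, with the highest Glul value, and ND 2, with the highest ND value, also stood apart in markers of skeletal muscle, a tissue that expresses Glul. The summed level of 12 muscle markers was 978, 134 and 44.6 FPKM in HCD and 33.1, 878 and 42.9 FPKM in ND. All 11 tested markers had a higher mean in HCD on the log2 scale. In mean FPKM, however, Ckm, Myh4 and Pvalb were lower in HCD and the other tested markers higher. The order of HCD 1 and ND 2 depended on the marker: Acta1, skeletal muscle actin, was at 448.5 FPKM in HCD 1 and 274.6 FPKM in ND 2, whereas Ckm, muscle creatine kinase, was at 81.4 FPKM in HCD 1 and 100.2 FPKM in ND 2. Without HCD 1 and ND 2, which had the highest muscle sums, the Glul difference was 0.50 (adjusted p = 0.693, with 0.543 to 1.00 over all 15 alternatives run for Glul). Markers of other cells also differed in their means between the diets, and limma called none of them. Higher log2 means in HCD were found for 10 of 11 macrophage markers (median log2 difference 0.35), 8 of 8 T cell markers (0.66) and 8 of 8 endothelial markers (0.34). The same held for 2 of 2 tested adipocyte markers (0.46) and 4 of 5 tested keratinocyte markers (0.33). Lower means in HCD were found for 6 of 7 tested neutrophil markers (-0.52), 4 of 5 alternatively activated macrophage markers (-0.11) and 6 of 8 fibroblast markers (-0.09). Over all tested genes, 55.7% had a higher mean in HCD. The summed T cell level was 42.4, 63.1 and 24.8 FPKM in HCD and 8.43, 30.4 and 36.7 FPKM in ND, and the macrophage sums given above overlapped as well. The endothelial sum was 66.2, 117 and 65.3 FPKM in HCD and 53.8, 64.1 and 68.3 FPKM in ND, with the high value in HCD 2. The neutrophil sum was 49.2, 46.3 and 49.6 FPKM in HCD and 114, 49.5 and 112 FPKM in ND, with ND 2 inside the HCD range. The part of these cells in the Glul difference was not tested. In bulk tumour RNA, a different share of cells and a different amount of RNA per cell cannot be told apart. Teddm2, annotated on the opposite strand across the Glul start, had a mean of 0.139 FPKM.

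**Figure D3:**
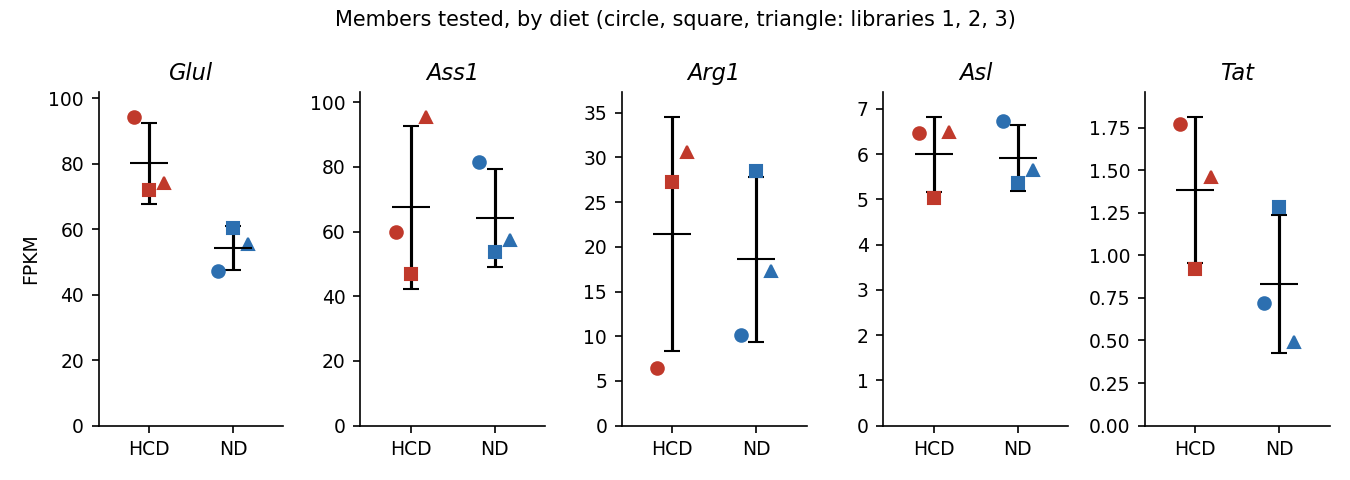
FPKM of the 5 tested members by diet, with HCD left and ND right; points are libraries, and bars are the mean and SD of 3. Glul is the gene whose HCD points (71.8 to 94.3 FPKM) all lie above its ND points (47.2 to 60.5 FPKM); in the other 4 genes the groups overlap.

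Of the 12 listed genes of glutamine and ammonia handling, 9 were tested, with means higher in HCD in 5 and lower in 4, and limma called none. Their median log2 difference was 0.12. Slc38a2, a sodium-coupled glutamine transporter and the most abundant of the list, was at 125.6, 134.7 and 125.7 FPKM in HCD and at 155.2, 155.2 and 160.4 FPKM in ND. Its HCD values lay wholly below its ND values, as did those of 6.13% of tested genes, with a log2 difference of -0.29 (SE 0.05, limma adjusted p = 0.794). Glud1, the mitochondrial enzyme that releases ammonia from glutamate, was at 68.7 ± 3.32 FPKM in HCD and 63.1 ± 2.48 FPKM in ND (SD, n = 3 each, limma adjusted p = 0.794). Gls2, the liver-type glutaminase, was at 0.329 ± 0.0409 FPKM in HCD and 0.326 ± 0.0223 FPKM in ND (SD, n = 3 each), below the level for testing.

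In liver, Glul is a target of beta-catenin and marks perivenous hepatocytes. Of the 15 genes listed for beta-catenin signalling and the perivenous zone, 12 were tested, with means higher in HCD in 7 and lower in 5, and limma called none. Their median log2 difference was 0.15, and Glul itself is in the list. Several genes of the pathway were abundant in both groups, with differences in both directions that were not of equal size. Over the tested genes of the list, the log2 differences ran from -0.08 to 0.55, the latter being that of Glul. Ctnnb1, beta-catenin itself, was at 61.1 ± 5.49 FPKM in HCD and 64.1 ± 9.15 FPKM in ND, and Lgr5, a receptor that enhances Wnt signals, was at 13.1 ± 1.90 FPKM in HCD and 13.3 ± 0.193 FPKM in ND (SD, n = 3 each). Nkd1, a feedback inhibitor, was at 87.3 ± 17.5 FPKM in HCD and 67.8 ± 14.6 FPKM in ND (SD, n = 3 each), with overlapping groups and a log2 difference of 0.36 (limma adjusted p = 0.794). Sp5, a transcription factor induced by Wnt signals, was at 71.0 ± 14.5 FPKM in HCD and 65.9 ± 10.7 FPKM in ND (SD, n = 3 each). Axin2, a classical readout of the pathway, was at 36.4 ± 3.57 FPKM in HCD and 31.5 ± 3.13 FPKM in ND (SD, n = 3 each, limma adjusted p = 0.794). Genes of perivenous hepatocytes ranged widely. Oat, which converts ornithine, had a mean over the 6 libraries of 66.9 FPKM, next to 67.2 FPKM for Glul, with 66.4 ± 8.58 FPKM in HCD and 67.3 ± 4.83 FPKM in ND (SD, n = 3 each). Slc1a2, a glutamate transporter, had means of 0.701 FPKM in HCD and 0.458 FPKM in ND, and Rhbg, an ammonium transporter, had means of 0.0590 FPKM in HCD and 0.0250 FPKM in ND. Of the 12 periportal genes listed, 3 were tested, namely Ass1, Arg1 and Cdh1, and 9 lay below the level for testing, among them Cps1, Pck1, Fbp1 and G6pc.

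Of the enzymes of gluconeogenesis, Pck1, Fbp1 and G6pc were near 0 in both groups. Pck1, the cytosolic phosphoenolpyruvate carboxykinase (chromosome 2, 173153048 to 173159273), was at 0.0175, 0.105 and 0.00852 FPKM in HCD 1 to HCD 3 and at 0.0468, 0.143 and 0 FPKM in ND 1 to ND 3. These values correspond to 2, 12 and 1 reads in HCD and to 6, 21 and 0 reads in ND. The highest value in each diet was in library 2, and the groups overlapped. Adipocytes express Pck1, and the summed level of 8 adipocyte markers was 19.0, 24.6 and 5.73 FPKM in HCD and 9.17, 16.1 and 8.43 FPKM in ND, of which 2 of 8 markers were tested. The highest sum in each diet was in library 2 as well, but the order depended on the marker. Cfd was highest in library 2 of both diets, at 11.1 FPKM in HCD 2 and 8.34 FPKM in ND 2. Fabp4, however, was lowest of the ND libraries in ND 2 at 5.31 FPKM, and Adipoq was highest in HCD 1 at 0.952 FPKM. The part of adipocytes in the Pck1 reads was not tested.

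Fbp1, the liver fructose bisphosphatase (chromosome 13, 62864753 to 62888282), had 1, 0 and 0 reads in HCD and 0, 0 and 2 reads in ND. G6pc, the catalytic subunit that frees glucose from its phosphate (chromosome 11, 101367561 to 101377903), had no read in HCD and 1 read in ND 3. With no level required for testing, limma gave Cps1 a log2 difference of 0.07 (SE 0.03, adjusted p = 0.865), from 18 reads in HCD, none of them in HCD 1, and 1 read in ND. The adjusted p was 0.928 for Pck1, 0.930 for Fbp1 and 0.904 for G6pc in the same limma fit.

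Relatives of these enzymes were present in the same tumours. Pck2, the mitochondrial phosphoenolpyruvate carboxykinase, was at 16.7, 15.9 and 17.4 FPKM in HCD and at 13.4, 19.6 and 15.0 FPKM in ND, above Pck1 in 6 of 6 libraries. G6pc3, the widely expressed glucose phosphatase subunit, was at 6.85, 5.39 and 5.83 FPKM in HCD and at 5.71, 6.62 and 5.92 FPKM in ND, above G6pc in 6 of 6 libraries. Cad, the cytosolic enzyme that makes carbamoyl phosphate for pyrimidines, was at 7.71, 7.73 and 7.36 FPKM in HCD and at 6.94, 7.95 and 7.12 FPKM in ND, above Cps1 in 6 of 6 libraries. These 3 relatives varied little between libraries, and limma called none of them between diets (adjusted p of 0.911, 0.973 and 0.879). An antisense gene is annotated opposite Pck2.

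For the muscle enzyme and the second arginase the picture differed. Fbp2, the muscle fructose bisphosphatase, had 6, 1 and 0 reads in HCD and 0, 14 and 0 reads in ND. Its reads were in the 3 libraries with the highest muscle sums, HCD 1, ND 2 and HCD 2. Arg2, the mitochondrial arginase, was at 3.34, 1.58 and 1.61 FPKM in HCD and at 3.37, 1.20 and 3.67 FPKM in ND. Arg1 exceeded it in 6 of 6 libraries, by 1.94, 17.3 and 19.1 times in HCD and by 3.01, 23.7 and 4.71 times in ND. HCD 1 and ND 1, the libraries with the least Arg1, were among the 3 with the most Arg2. G6pc2, the islet form, was listed at 0 in all 6 libraries. Vti1b and an antisense gene are annotated on the strand opposite Arg2, so reads of Arg2 may include theirs.

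**Figure D4:**
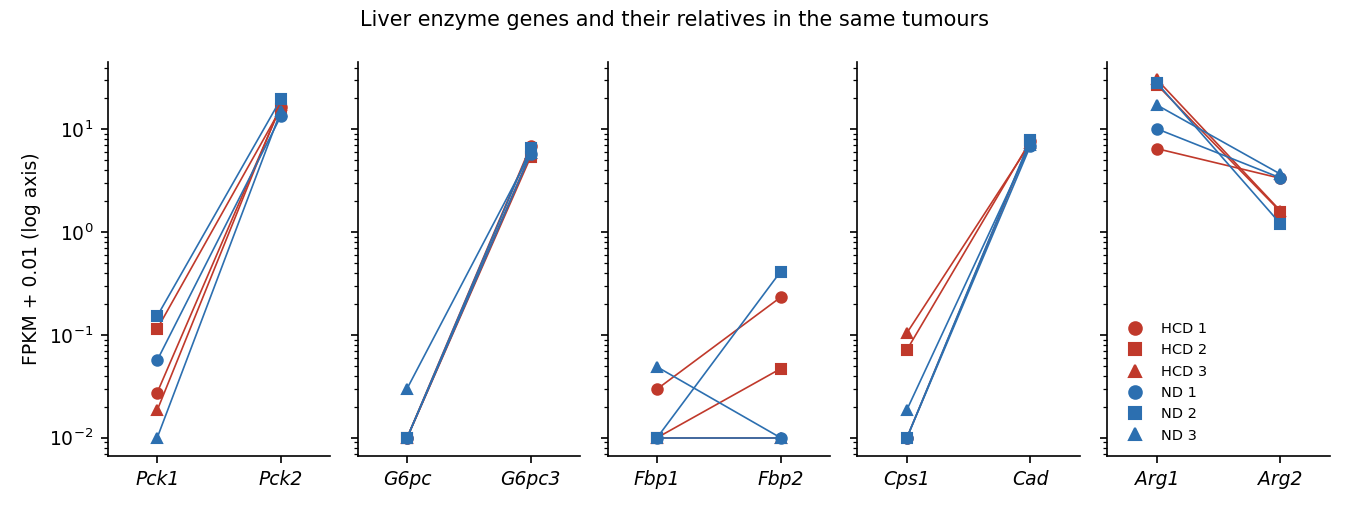
FPKM plus 0.01 on a log axis for a member (left in each panel) and a related enzyme gene (right), with a line for each library (HCD red, ND blue). Pck2, G6pc3 and Cad lie between 5.39 and 19.6 FPKM in every library while Pck1, G6pc and Cps1 do not exceed 0.143 FPKM, and Arg1 lies above Arg2 in every library.

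Of the 8 genes listed for gluconeogenesis and glucose release, 4 were tested, with means higher in HCD in 3 and lower in 1, and limma called none. Their median log2 difference was 0.04. Besides Pck2, they included Slc37a4, the carrier that brings glucose phosphate into the endoplasmic reticulum, at 12.3 ± 1.91 FPKM in HCD and 11.5 ± 0.776 FPKM in ND, and Pcx, which carboxylates pyruvate, at 3.09 ± 0.176 FPKM in HCD and 3.11 ± 0.567 FPKM in ND (SD, n = 3 each). Slc2a2, the liver glucose transporter, did not exceed 0.0620 FPKM in any library.

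Tat, which transfers the amino group of tyrosine (chromosome 8, 109990437 to 109999803), was detected at a low level in all 6 libraries. It was at 1.77, 0.920 and 1.46 FPKM in HCD 1 to HCD 3 and at 0.719, 1.28 and 0.494 FPKM in ND 1 to ND 3, from 92, 48 and 78 reads in HCD and 42, 86 and 26 reads in ND. ND 2 was above HCD 2, so the groups overlapped. The mean was 1.38 ± 0.430 FPKM in HCD and 0.832 ± 0.407 FPKM in ND (SD, n = 3 each). The log2 difference of 0.39 (95% interval -0.11 to 0.88) did not pass (limma adjusted p = 0.794). With a pseudocount of 0.1, which compresses low values less, it was 0.71, and on recovered reads limma-voom gave 0.75 (adjusted p of 0.794 and 0.810, with 0.545 to 1.00 over its 15 alternatives).

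Amino acid breakdown beyond Tat was also uneven. Of 26 listed genes, 17 were tested, with means higher in HCD in 11 and lower in 6, and limma called none, with a median log2 difference of 0.08. Got2, the mitochondrial aspartate aminotransferase, was at 75.3 ± 4.81 FPKM in HCD and 70.9 ± 2.40 FPKM in ND (SD, n = 3 each). Steps next to Tat were divided: Hpd and Hgd, which follow it in tyrosine breakdown, did not exceed 0.0394 FPKM, whereas Gstz1 and Fah, which complete the path, ranged from 5.39 to 8.69 FPKM over the 6 libraries.

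Genes of arginine use and transport ranged widely in level, and 6 of the 13 listed had a mean of at least 10 FPKM. Of 13 listed, 10 were tested, with means higher in HCD in 6 and lower in 4, and limma called none, with a median log2 difference of 0.02. Odc1, which makes putrescine from the ornithine that arginase releases, was at 98.1 ± 8.15 FPKM in HCD and 97.6 ± 6.11 FPKM in ND (SD, n = 3 each). Srm, the spermidine synthase, was at 24.0 ± 3.56 FPKM in HCD and 23.4 ± 2.52 FPKM in ND (SD, n = 3 each). Nos2, the inducible nitric oxide synthase that competes with arginase for arginine, was at 3.81, 11.8 and 4.30 FPKM in HCD and at 3.82, 3.73 and 4.77 FPKM in ND, with the 1 high value in HCD 2. Slc7a2, a cationic amino acid transporter, was at 9.54, 8.49 and 8.48 FPKM in HCD and at 7.66, 6.85 and 7.49 FPKM in ND, without overlap, with a log2 difference of 0.24 (limma adjusted p = 0.794).

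Transcription factors that act on these enzymes in liver were present in part. Of 20 listed regulators, 14 were tested, with means higher in HCD in 7 and lower in 7, and limma called none, with a median log2 difference of 0.00. Foxa2 was at 26.9 ± 3.10 FPKM in HCD and 27.7 ± 2.95 FPKM in ND, and Nr3c1, the glucocorticoid receptor, was at 13.5 ± 0.357 FPKM in HCD and 14.3 ± 0.791 FPKM in ND (SD, n = 3 each). Hnf4a was at 18.5, 16.8 and 18.4 FPKM in HCD and at 25.9, 17.9 and 25.4 FPKM in ND, with ND 2 inside the HCD range and a log2 difference of -0.33 (limma adjusted p = 0.794). Gcgr, the glucagon receptor, did not exceed 0.0382 FPKM, and Ppargc1a, a coactivator of gluconeogenic genes, did not exceed 0.499 FPKM in any library.

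Across the design as a whole, limma called 0 of 13417 tested genes between diets at an adjusted p of 0.05, so 0% is the background for the 0 of 5 tested members called. Before adjustment, 789 genes had a p under 0.05. Limma-voom on recovered reads also called 0, with 712 genes under 0.05 before adjustment. All 5 tested members had a higher mean in HCD, as did 55.7% of all tested genes, though the Ass1 and Asl signs turn under upper-quartile scaling. Library sizes implied by the values were 20351637 to 26228073 fragments, and log2 values of tested genes correlated at 0.960 to 0.986 between libraries.

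**Figure D5:**
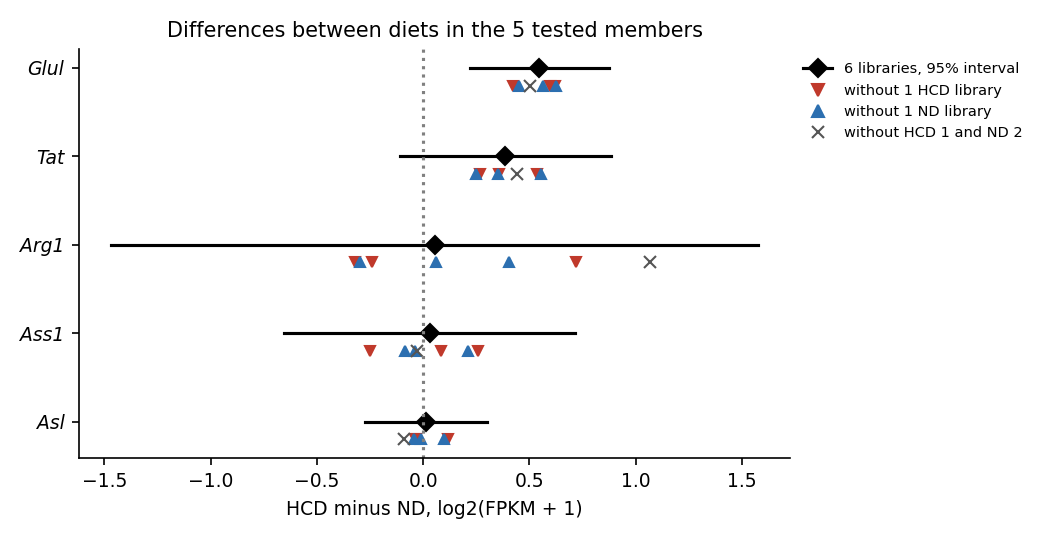
Difference between diets (HCD minus ND, log2 of FPKM + 1) for the 5 tested members, as the estimate from 6 libraries with its 95% interval (black), without 1 HCD library (red), without 1 ND library (blue), and without HCD 1 and ND 2 (cross). The Glul interval runs from 0.22 to 0.87, and the Arg1 interval from -1.47 to 1.57.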

How the data were processed

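Per the file headers, the authors deposited FPKM of 34745 mouse Ensembl genes, with a column for each of 6 tumours. Tools named without their roles in the submitters' processing notes are edgeR, HTSeq, TopHat2 2.0.9 and CASAVA 1.8, with mm10 as the build. The annotation release and strand setting are not given in the sources used here. Members and gene lists were chosen with earlier results of these data known.

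The 13417 genes whose mean reached 0.5 FPKM were fitted with limma 3.58.1 in R 4.3.3 on log2(FPKM + 1), with diet as the term, a variance trend, two-sided tests and Benjamini-Hochberg adjustment over all tested genes at 0.05. Differences are HCD minus ND and understate changes of low genes. The fit was tested on simulated data. Whole reads were recovered from the steps of the FPKM values, within 0.02 of a read, for 99.0% of tested genes with an annotated length, against 0% of 1330 decoys. At 2 kb, 1 FPKM stands for 40.7 to 52.5 reads, and reads carry counting error. The gene lengths that the steps imply were 1.00 to 1.63 times the GENCODE M21 exon length for the 9 members with reads, which limits comparison of levels between genes. For members with few reads the nearest length was taken. Positions are from M21 on GRCm38, where 34344 of the IDs were found.

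All members were described. From each list, called genes were to be named, and without calls the 2 or 3 most abundant, with relatives of members and adjoining steps. Slc25a15, Slc25a2, Nags, Gls2, Axin2, Ctnnb1, Lgr5, Acta1, Ckm, Pcx, Slc7a2, Nos2, Hpd, Hgd, Gstz1, Fah, Slc2a2, Slc1a2, Gcgr and Ppargc1a were chosen after their values were seen. Nr3c1, Rhbg, Serpina1a, Adipoq, Myh4, Pvalb and Rpl24 were also named outside the rule above. Some listed genes are not reported here by name. Alternatives comprised a pseudocount of 0.1, other filters, scalings, no variance trend, limma-voom on recovered reads, a replicate block and leaving out libraries.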

Additional observations from a re-analysis of the deposited data

How the results depend on the processing

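With 3 tumours per diet, precision differed between members: the 95% interval spans -0.27 to 0.30 for Asl and -1.47 to 1.57 for Arg1. Tat and Glul kept their sign and stayed without a call in all 15 alternatives, with log2 differences of 0.25 to 0.75 and of 0.42 to 0.63. Ass1 turned to -0.03 without HCD 1 and ND 2 and to -0.0014 under upper-quartile scaling, and ranged from -0.25 to 0.26 when each library was left out. Asl turned to -0.092 and -0.013 in the same 2 settings, and ranged from -0.04 to 0.12. Arg1 ranged from -0.32 to 0.72 when each library was left out, and was 1.07 without HCD 1 and ND 2. The cause was not tested. Genes called higher were 0 in all 15 alternatives, and genes called lower were 0 in 14; leaving out each library gave 0 to 1, the 1 being without ND 2. Same-numbered tumours of the 2 diets correlated at -0.19, 0.142 and 0.0588 in their deviations from the diet means, and none correlated best with its own number. With the replicate block, 0 genes were called higher and 0 lower (Glul 0.55, adjusted p = 0.794).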
